A study of Mus musculus with 4 samples.

Results

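Beta-defensins and other secretory genes of the epididymis were examined in epididymal fat, the visceral fat pad that lies against the testis and epididymis. Members were taken by gene symbol: every Defb gene with a number, every Spag11 gene, and a list of 22 further genes of epididymal secretion. Gpx5 was set aside from that list because it belongs to the glutathione peroxidases, and 14 of the remaining 21 were found by name among the probe sets used. This gave 34 genes, 20 beta-defensins and 14 others, of 18194 genes in all. No Spag11 symbol occurred among the probe sets used. The C57Bl/6J mice were 9 weeks old at the start and ate a diet with 60% of energy from fat for 21 weeks, so that all arrays come from high-fat feeding. One diet held 1.8% calcium and whey protein isolate, and the control diet, the standard high-fat one, held 0.4% calcium. There were 10 mice to a diet, of which 2 were taken for Affymetrix arrays. By their labels 2 arrays belong to the high-calcium whey diet and 1 to the standard diet. The remaining array is titled with the wording of the series title, so its diet is not settled, and as the array of open diet it entered no comparison between diets. Its values are given beside the others.

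Beta-defensins are small secreted peptides, held together by disulphide bridges, that damage microbial membranes and, in the epididymis, also coat sperm. The epididymis is a long duct whose lining secretes defensins, lipocalins, protease inhibitors and cysteine-rich proteins region by region, and sperm mature as they pass through these secretions. Many beta-defensin genes lie side by side as products of gene duplication.

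Promoter sequences are shown for Defb9, Defb10 and Defb11 because they are neighbours in the gene cluster that held 5 of the 7 beta-defensins above background, and for Defb42 because it stood highest over the median of an array. They come from RefSeq on GRCm38.p6, run from 250 bases before to 50 bases after the gene start, and were matched by symbol, which found 25 of the 34 members with 29 promoters. Defb9 lies at chr8:21885385-21885684 on the minus strand, Defb10 at chr8:21858651-21858950 on the plus strand and Defb11 at chr8:21906383-21906682 on the minus strand. Defb42 lies at chr14:63046741-63047040 on the plus strand. Each is printed 5′ to 3′. Capitals mark the longest run shared by Defb9, Defb10 and Defb11, and Defb42 has none.
Defb9: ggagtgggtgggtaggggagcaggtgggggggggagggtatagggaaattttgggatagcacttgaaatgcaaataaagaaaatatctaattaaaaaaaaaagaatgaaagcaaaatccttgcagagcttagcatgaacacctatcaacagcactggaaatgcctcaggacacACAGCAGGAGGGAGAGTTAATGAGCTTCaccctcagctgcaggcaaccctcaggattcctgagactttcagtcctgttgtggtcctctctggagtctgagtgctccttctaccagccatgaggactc
Defb10: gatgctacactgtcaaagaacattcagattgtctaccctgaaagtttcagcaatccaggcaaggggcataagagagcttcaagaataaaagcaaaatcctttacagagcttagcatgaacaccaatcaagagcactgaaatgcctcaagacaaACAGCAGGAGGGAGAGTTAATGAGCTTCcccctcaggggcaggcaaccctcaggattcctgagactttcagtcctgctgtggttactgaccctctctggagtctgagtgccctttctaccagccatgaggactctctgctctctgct
Defb11: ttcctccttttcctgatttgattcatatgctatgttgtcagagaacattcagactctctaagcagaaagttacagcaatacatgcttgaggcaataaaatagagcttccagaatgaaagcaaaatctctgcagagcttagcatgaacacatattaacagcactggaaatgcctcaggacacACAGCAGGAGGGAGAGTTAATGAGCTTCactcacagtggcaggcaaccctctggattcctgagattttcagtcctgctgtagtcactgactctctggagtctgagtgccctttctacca
Defb42: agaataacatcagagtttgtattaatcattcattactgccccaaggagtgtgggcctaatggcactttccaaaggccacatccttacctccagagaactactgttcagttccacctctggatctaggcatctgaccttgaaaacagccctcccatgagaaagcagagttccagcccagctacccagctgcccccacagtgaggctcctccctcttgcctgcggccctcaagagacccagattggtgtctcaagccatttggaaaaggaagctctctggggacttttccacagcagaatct
The shared run is 28 bases long and occurs in 3 of the 32851 promoters in the table, those of these genes. Aligned with free ends, and counted over the aligned part only, Defb9 and Defb10 were identical at 84.8% of 264 aligned bases, Defb10 and Defb11 at 86.7% of 271, and Defb9 and Defb11 at 80.0% of 275. Likeness of promoters was not limited to genes with signal, since Defb10 was not above background on any array. Defb3 and Defb8, also not above background on any array, were identical at 90.2% of 296 aligned bases. The steroid receptor half-site, searched as AGAACA on both strands, was present in 8 of 16 beta-defensin promoters, in 13 of 29 promoters of all members (44.8%) and in 19.0% of all promoters in the table. Defb10 and Defb11 hold it, and Defb9 and Defb42 do not. Several of these promoters are near copies of each other and so are not separate observations. The core of the TATA box, searched as TATAAA on both strands, occurred in 3 of 29 member promoters (10.3%) and in 13.6% of all. The motifs overlapped in 0 member promoters.

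Signals are given as log2 of the deposited linear intensity, with high-calcium replicate 1, high-calcium replicate 2, the standard array and the array of open diet always in this order. A gene was taken as above background on an array where its signal exceeded the median of all 45101 probe sets there, which was -3.38, -3.99, -4.00 and -4.09 on the log2 scale. Genes of fat cells were above it throughout: all 8 measured adipocyte genes, Adipoq, Fabp4 and Lep among them, exceeded the median on all 4 arrays. Their summed linear signal was 140 and 127 on the high-calcium arrays, 123 on the standard array and 118 on the array of open diet. The number of arrays limits the precision of every comparison, and in bulk tissue fewer cells of a type and less RNA per cell cannot be told apart.

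Most members had no signal above background on any array. On at least 1 of the 4 arrays 10 of 34 members were above the array median, against 74.8% of all genes, and on all 4 arrays 0 were, against 57.5%. By array the count was 7 (replicate 1), 2 (replicate 2), 6 (standard) and 2 (open diet), while between 64.6% and 66.1% of all genes passed on each. Of the 20 beta-defensins 7 were above background somewhere, and of the other 14 members 3 were, namely Rnase10, Spink2 and Adam28. At a stricter level, 2 times the array median, 4 members passed: Defb42, Defb2, Defb11 and Defb29. By its highest array, the member just inside the limit was Defb35, at -3.94 against a median of -3.99 on replicate 2, and the member just outside was Cst12, at -3.53 against -3.38 on replicate 1.

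**Figure D1:**
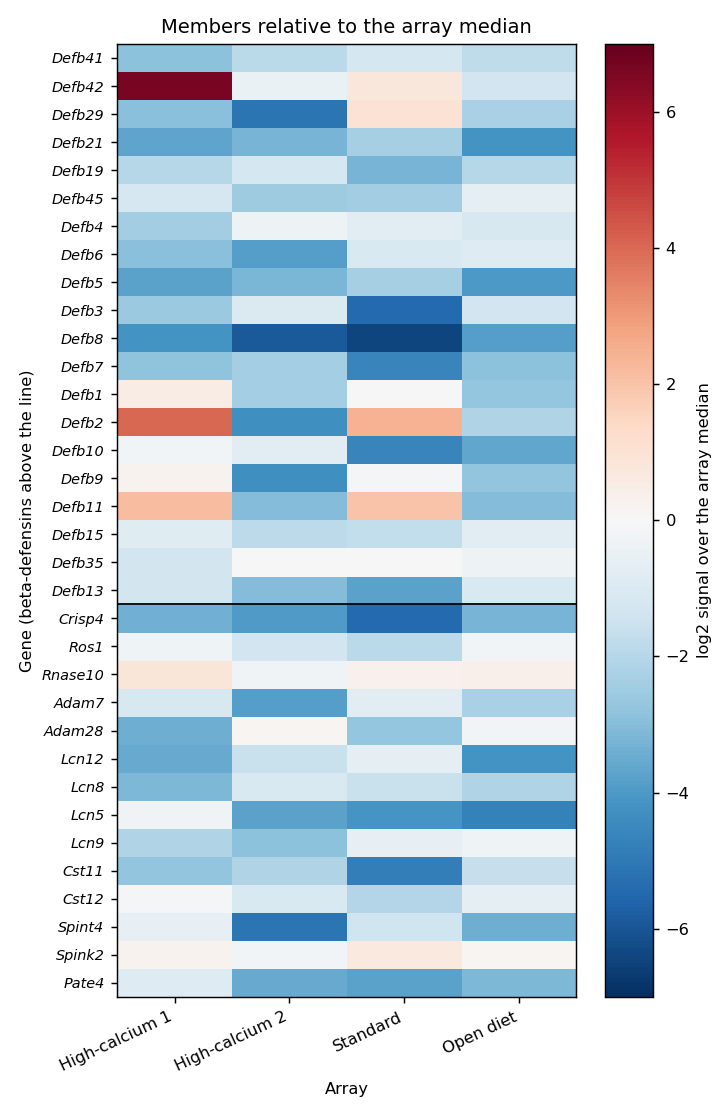
Colour gives the log2 signal of each of the 34 members over the median of its array, for the 4 arrays in columns, with beta-defensins above the black line. Most cells lie below 0, and the strongest positive cells are those of Defb42, Defb2 and Defb11 on high-calcium replicate 1 and of Defb2 and Defb11 on the standard array.

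Defb42, a beta-defensin of the epididymis, had log2 signals of 3.25, -4.48, -3.21 and -5.46. It was far higher on replicate 1 than on any other array and was also above background on the standard array. The difference from the standard array was 88.5-fold on replicate 1, and replicate 1 was at least 152-fold above replicate 2, where the gene was below background. Each "at least" sets the brighter array against the array median of the dimmer one.

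Defb2, an inducible epithelial beta-defensin, had log2 signals of 0.62, -8.27, -1.58 and -6.18. Replicate 1 and the standard array were above background and the other two were not. Replicate 1 was 4.60-fold above the standard array and at least 24.5-fold above replicate 2. The standard array in turn was at least 5.33-fold above replicate 2 and at least 5.72-fold above the array of open diet.

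Defb11, a relative of Defb2 in the same gene cluster, had -1.22, -7.05, -2.00 and -7.12. The same arrays were high as for Defb2: replicate 1 was 1.72-fold above the standard array and at least 6.85-fold above replicate 2. Its only probe set is of the kind that can match related transcripts, so signal from its neighbours cannot be told apart. The pattern of these 3 genes, above background on replicate 1 and the standard array and on neither other array, was shared by 1.33% of all genes.

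Defb1, the constitutive beta-defensin of many epithelia, had -2.87, -6.36, -4.03 and -6.79. It was above background on replicate 1 and just under the median on the standard array, and the remaining arrays were low. Its second probe set gave -3.15, -8.64, -8.11 and -8.11, high on replicate 1 as well but low on the standard array. Defb9, whose promoter is shown above, had -3.15, -8.27, -4.13 and -6.85 and was likewise above background on replicate 1 alone, as were 3.4% of all genes.

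These genes are neighbours. Defb1, Defb2, Defb10, Defb9, Defb11, Defb15, Defb35 and Defb13 follow each other on GRCm38.p6 with at most 1 other coding gene between them, and 5 of these 8 were above background on some array. A second run of 6 members, Defb4, Defb6, Defb5, Defb3, Defb8 and Defb7, had 0 above background. In the first run 7 of 8 genes had a higher signal on replicate 1 than on replicate 2, with a median log2 difference of 2.95. In the second run 4 of 6 did, with a median of 0.13. Over all genes 63.7% were higher on replicate 1, with a median of 0.18, and the difference between the runs was not tested. Probe sets of duplicated genes can share targets, and members of one run are not independent of each other.

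Defb29, a beta-defensin of the male tract from a separate cluster, went another way, with log2 signals of -6.29, -9.12, -2.97 and -6.39. It was above background on the standard array alone, at least 1.32-fold over replicate 1, 2.03-fold over replicate 2 and 2.18-fold over the array of open diet. As a group the high-calcium arrays averaged -7.70 ± 2.00 (SD, n = 2), and the standard array was at least 1.64-fold above background on them (limma, adjusted p = 0.9999). Its cluster neighbours Defb21, Defb19 and Defb45 were below background on all 4 arrays.

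Rnase10, a secreted member of the ribonuclease A family made in the proximal epididymis, had -2.51, -4.21, -3.69 and -3.75. It was above background on all arrays except replicate 2, and replicate 1 was 2.27-fold above the standard array. Spink2, a Kazal-type protease inhibitor of the male tract, had -3.15, -4.17, -3.31 and -3.97. Its levels stayed within 0.69 of the array medians, and replicate 1 and the standard array differed 1.11-fold.

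Adam28, a metalloprotease-disintegrin of lymphocytes and epididymis, had -6.79, -3.88, -6.68 and -4.30 and was above background on replicate 2 alone. A second probe set of Adam28 gave -5.35, -7.19, -7.27 and -7.63, so its probe sets disagreed on the order of the arrays. Defb35 had -4.66, -3.94, -4.01 and -4.43 and lay within 1.29 of the median on every array. Gpx5, the secreted glutathione peroxidase of the epididymis that was set aside, had -4.31, -3.69, -4.48 and -3.86, above background on replicate 2 and the array of open diet.

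The 24 members without signal above background include lipocalins, cystatins and other epididymal secretions. The lipocalins Lcn5, Lcn8, Lcn9 and Lcn12, carriers of small hydrophobic molecules, had log2 signals between -8.85 and -3.61. The cystatins Cst11 and Cst12, inhibitors of cysteine proteases, lay between -8.85 and -3.53. Crisp4, a cysteine-rich protein that binds sperm, Pate4 of the seminal tract and Ros1, the receptor tyrosine kinase needed for the initial segment of the epididymis, lay between -9.44 and -3.67. The Kunitz-type inhibitor Spint4 had -3.94, -9.12, -5.41 and -7.53, and Adam7, an ADAM protein of the epididymis, had -4.49, -7.86, -4.74 and -6.35. The 13 beta-defensins among them spanned -10.4 to -3.59. Values in this range are bounds rather than levels and are ordered here only as measured.

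No member differed between the diets by the test used. Limma, fitted over all 18194 genes on the 2 high-calcium arrays and the standard array, called 0 of 34 members at an adjusted p under 0.05, and 0% of all genes (smallest adjusted p = 0.978). At an unadjusted p under 0.05 there were 5 members higher on the high-calcium diet, against 4.02% of all genes, and 0 lower, against 0.918%. These 5, Cst11, Defb10, Defb19, Defb3 and Defb7, were below background on all 4 arrays, with log2 signals between -9.44 and -7.27 on the standard array. With a trend and robust estimation limma called 0 members and 0.033% of all genes. With 1 residual degree of freedom the intervals were wide: for Defb42 the difference was 2.60 (SE 4.36) with a 95% interval from -13.6 to 18.8, and for Defb2 it was -2.25 (SE 5.01) with an interval from -20.8 to 16.3 (limma, adjusted p = 0.9999 for both). The difference of Defb42 was carried by replicate 1, at 6.47 there and -1.27 on replicate 2. That of Defb2 was 2.20 and -6.70, and that of Defb11 was 0.78 and -5.05. All of these genes were below background on replicate 2, so the sizes of the differences there are not measured.

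The 2 high-calcium arrays fell on the same side of the standard array for 12 members that were higher, against 38.6% of all genes, and for 7 that were lower, against 23.9%. As shares of the members these are 35.3% and 20.6%. By size, 8 members were at least 1.5-fold higher on both high-calcium arrays, against 12.7% of all genes, and 7 at least 1.5-fold lower, against 4.49%. Of these 15 members only Defb29 was above background on any array. The median log2 difference between the diets was 0.039 over the members and 0.079 over all genes. It was -0.24 and -0.006 after quantile normalization and -0.28 and -0.24 on median-centred arrays, so no direction of the members as a family can be given. Without replicate 2 the median over the members was 1.33, and without replicate 1 it was -0.075.

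**Figure D2:**
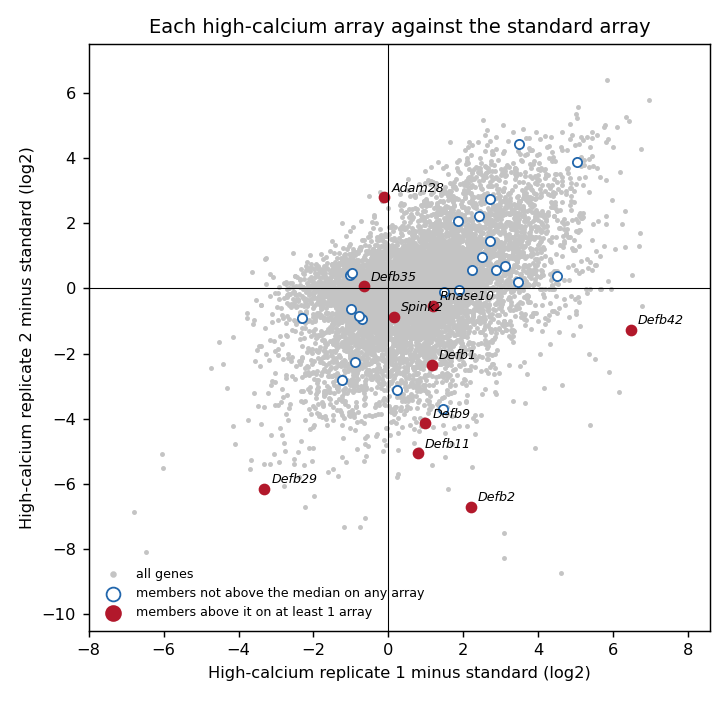
Each point is a gene, placed by its log2 difference from the standard array on high-calcium replicate 1 (horizontal) and on replicate 2 (vertical), with all genes in grey and members in colour. Both axes share the standard array, and Defb42, Defb2, Defb11, Defb9 and Defb1 lie to the right of 0 and below it.

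Over the 34 members the median size of the gap between the 2 high-calcium arrays was 1.58 in log2, beside a median size of 1.60 for the difference between the diets. For 20 of 34 members (58.8%) the gap between these arrays was wider than the difference between the diets, against 59.8% of all genes. Over the 34 members the median log2 difference of replicate 1 over replicate 2 was 1.55, against 0.18 over all genes. It was 0.59 against 0.00 after quantile normalization, and 0.94 against -0.43 on median-centred arrays. Over the 34 members, 12 were at least 4-fold higher on replicate 1 than on replicate 2, against 10.1% of all genes, and 1, Adam28, was at least 4-fold higher on replicate 2, against 1.32%. Counting only members above background on the higher array, 5 were higher on replicate 1, against 3.57% of all genes, and 1 on replicate 2, against 0.643%. The 5 are Defb42, Defb2, Defb11, Defb9 and Defb1. Dim genes in general were higher on replicate 1: over all 4589 genes below background on every array the median difference was 0.92, and over the 24 members among them it was 1.32.

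Genes of other cells were high on the same arrays. The general epithelium list, 15 measured of 16, had summed linear signals of 12.3 and 1.31 on the high-calcium arrays, 3.95 on the standard array and 1.32 on the array of open diet, with 13, 8, 11 and 7 genes above background. Its claudin Cldn8, a tight junction protein, had log2 signals of 0.82, -7.98, -3.08 and -10.4, and Cldn7 had -0.71, -8.44, -2.30 and -5.35. Replicate 1 was the highest array for 14 of the 15 genes, against 47.6% of all genes. As for Defb2, replicate 1 was highest and the standard array next for 10 of the 15, a share not taken over all genes. Others differed: the standard array was the lowest for Epcam, an epithelial adhesion protein (-1.34, -2.63, -3.17 and -2.72), and for the basal keratins Krt5 and Krt14, and Krt7 was highest on it. The members themselves summed to 12.9 and 0.691 on the high-calcium arrays, 1.56 on the standard array and 0.746 on the array of open diet. Defb42 gave 73.9% of the sum on replicate 1, and without it the sums were 3.38 and 0.646, 1.46 and 0.723. Sperm cell genes, 14 measured of 14, summed to 5.42 and 0.973, 3.58 and 0.852, with 12, 4, 12 and 2 above background. Smcp, a protein of the sperm mitochondrial capsule, had 0.38, -6.31, -1.13 and -4.82. Smooth muscle genes, 12 measured of 12, summed to 81.6 and 14.9, 15.1 and 12.7, and B-cell genes, 9 measured of 10, to 3.38 and 0.720, 0.907 and 0.587. For these last lists replicate 1 stood apart and the standard array lay near the others. The part of any of these cells in the signal of the beta-defensins was not tested.

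**Figure D3:**
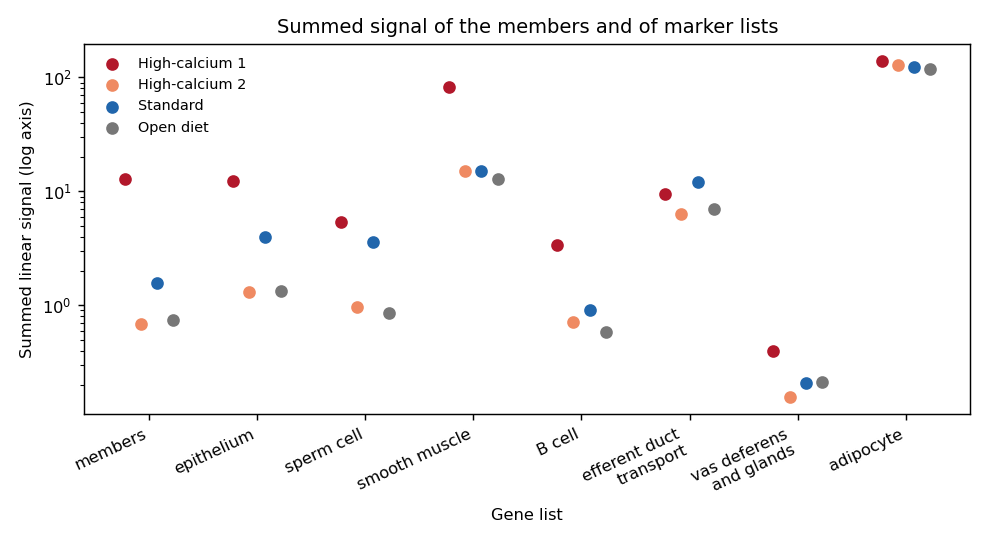
Points give the summed linear signal, on a log axis, of the members and of 7 marker lists on each array. Members, epithelium and sperm cell lists are highest on high-calcium replicate 1, with the standard array next (the members' sum on replicate 1 is 73.9% Defb42), while the adipocyte list lies between 118 and 140 on all arrays.

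Other genes of the epididymal lining gave a mixed account. Of 33 genes on a list of further epididymal secretions 16 were measured, 13 of them above background on some array, and limma called 0 at an adjusted p under 0.05. Over all genes 74.8% were above background on some array. Wfdc15b, a whey acidic protein domain peptide, had 2.32, -4.10, -0.023 and -3.91, with replicate 1 highest and the standard array next, as for Defb2. Cuzd1, a CUB and zona pellucida domain protein, was highest on the standard array, with -0.34, -4.73, 1.01 and -2.83, and Wfdc6a had -3.08, -6.64, -3.31 and -4.64. These genes were named for their wide range, and for each of them replicate 1 and the standard array were above the other 2 arrays. Cd52, Clu, Ces5a and Sult1e1 of this list had the same pattern. Its share over all genes was not taken, so it cannot be read as particular to this list. The remaining measured genes lacked the pattern: Eppin, Npc2, Dcxr and Mfge8 were lowest on the standard array. Wfdc15a, Cst3, Wfdc2, Crisp3 and Lcn2 departed from the pattern in other ways. Lcn2, a lipocalin of neutrophils and inflamed epithelia, had -1.05, -1.66, 1.80 and -0.47. It was lower on both high-calcium arrays and was called by limma with a trend and robust estimation, the only gene of this list that was.

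Efferent duct transport genes, 16 measured of 16, had 8 members lower on both high-calcium arrays than on the standard array and 2 higher, against 23.9% and 38.6% of all genes, with 0 called by limma. Adgrg2, the adhesion receptor of the efferent ducts, had -1.62, -2.84, 0.61 and -2.26, highest on the standard array, unlike Defb42. Aqp9, a water and glycerol channel, had -0.72, -4.98, -2.50 and -4.24, and the folate receptor Folr1 had -1.10, -3.94, -1.99 and -4.04, both highest on replicate 1. Their summed signal was 9.42 and 6.36 on the high-calcium arrays, 11.9 on the standard array and 7.01 on the array of open diet.

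Regulators of epididymal identity, 14 measured of 21, were above background in 12 cases on replicate 1 and in 7 on each other array. These 7 were the same genes throughout, Esr1, Lgr4, Etv5, Dicer1, Src, Ptpn6 and Nr3c1, each above background on all 4 arrays. Gata3, a transcription factor of duct epithelium, had -1.72, -7.13, -5.82 and -7.97. Hoxd10 had -2.77, -7.05, -4.96 and -8.85, and Hoxa11, another homeobox factor of the tract, had -1.97, -6.44, -4.62 and -4.54. All 3, named for their wide range, were above background on replicate 1 alone, as were Pax8 and Hoxa10 of this list and 3.4% of all genes. Limma called 0 of the 14.

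Markers of the tract beyond the epididymis were at background. Of the vas deferens and accessory gland list 11 of 17 genes were measured and 0 were above background on any array, with Svs2, Svs4, Svs5, Pbsn and Tgm4 among them. The proton-pumping clear cells of the epididymis were marked by 8 measured genes of 9. Their regulator Foxi1 was below background on all arrays, and Atp6v1b1, a proton pump subunit, was above it on replicate 1 alone, at -3.27, -5.00, -5.17 and -5.33. Atp6v0d2, a proton pump subunit that macrophages share, carried the list in the opposite order, at 0.59, 2.50, 2.27 and 2.59, and Atp6v1c2 had -6.29, -5.49, -3.94 and -6.23. Neutrophil genes, 9 measured of 10, summed to 3.62 and 2.90 on the high-calcium arrays, 6.14 on the standard array and 3.79 on the array of open diet. By gene, 5 of the 9 were higher on both high-calcium arrays than on the standard array and 2 were lower. The shares over all genes were 38.6% and 23.9%, and the median log2 difference of the list was 0.068. S100a8, a neutrophil calcium-binding protein and the brightest gene of the list on every array, had 1.39, 1.31, 2.47 and 1.78, lower on both high-calcium arrays. Limma called it with a trend and robust estimation but not without them. Camp, the cathelicidin of neutrophils and of epithelia that also make defensins, had -3.03, -5.35, -4.22 and -6.68. It was above background on replicate 1 alone. Of the other antimicrobial peptides and alpha-defensins 10 of 22 were measured, 7 above background on some array, and 0 were called by limma. Defa3 was the only alpha-defensin measured, and it was below background on all 4 arrays. The mesothelial list, 8 measured of 8 and all above background on every array, summed to 6.00 and 2.86, 2.34 and 3.28. By gene, 7 of the 8 were higher on both high-calcium arrays than on the standard array and 0 were lower, against 38.6% and 23.9% of all genes. The median log2 difference of this list was 0.81. The exception was its brightest gene on replicate 1, Krt19, which had 1.35, -1.89, -0.63 and -1.67 and is also on the epithelium list.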

How the data were processed

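Epididymal fat RNA was hybridised to 4 arrays. The values the authors deposited are linear intensities of 45101 probe sets. The submitters' processing notes name RMA without a version. The deposited intensities are linear, however, and the lowest on each array is 0.01 of its median, so how they were scaled is unknown. A series matrix table was the only file used, and it holds 0 columns that could not be mapped. Intensities were log2 transformed with nothing added.

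Probe sets were named from the platform annotation: 34958 had 1 symbol, 932 several and 9211 none, and each gene took the probe set with the highest mean over the 4 arrays. The diets were compared with limma 3.58.1 in R 4.3.3 (lmFit and eBayes, two-sided, Benjamini-Hochberg over all genes, 1 residual degree of freedom, 2.38 in all). The procedure was tested on simulated data, but recovery of changes was required only at a spread far below that of the members. That test therefore does not show which changes could be found among them. The standard array was assumed to vary like the high-calcium ones. The median as background was set beside 44 olfactory receptor probe sets, whose 95th percentile was 0.845 to 1.13 times it. Named members were those above background on at least 1 array, up to 25, and from other lists up to 3 genes by range; other names serve as examples of markers. Promoters were aligned with Biopython 1.88, and figures drawn with matplotlib 3.10.9. The members and lists were chosen with earlier results of these data known. Alternatives were other probe set rules, quantile normalization, centring, a floor, a filter, another variance model and left-out arrays.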

Additional observations from a re-analysis of the deposited data

Results flagged for a closer look

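Gpx5, which is not a member, had a log2 signal of -3.86 on the array of open diet, above the median of that array and above the -4.48 of the standard array. It was also above the median on high-calcium replicate 2, at -3.69. It was marked because that array enters no comparison between the diets.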

How the results depend on the processing

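The count of members called between the diets was 0 as reported and under every alternative except 2: with each array centred on its median limma called 2 members, Defb10 and Defb29 (smallest adjusted p = 0.00295), and 96 genes in all (61 higher, 35 lower), and at an unadjusted p under 0.05 there were 5. Centring shifts the median of all genes to -0.24. The cause of these calls was not tested further, and Defb10 is below background on all arrays. Of all genes, limma called 0 as deposited, 6 with a trend and robust estimation and 1 with values raised to the array median. The median difference of the members, 0.039 as reported, was -0.075 without high-calcium replicate 1 and 1.33 without replicate 2, as values with no test. Its lowest value over all alternatives was -0.47, over genes above background on at least 1 array, and it was also negative after quantile normalization (-0.24) and centring (-0.28). The count above background fell to 4 at 2 times the array median, and ranged from 8 to 10 with any 1 array left out, a check chosen after seeing the data. Defb1, at -0.59, turned positive under 3 settings: 0.82 when its probe sets were averaged, 2.22 when probe sets open to shared transcripts were dropped and 0.57 with values raised to the array median. That floor also turned Defb9 to 0.43 and Defb35 to 0.34. It brought Defb2 from -2.25 to -0.11, Defb11 from -2.13 to -0.61 and Defb29 from -4.73 to -0.71, while Defb42 went from 2.60 to 2.84. Leaving out 1 high-calcium replicate or the other changed the sign of the difference for 15 of 34 members (44.1%), against 37.5% of all genes. Among the members named, which passed by being high on single arrays, these were all but Defb29. No paired analysis was possible because the standard array carries no replicate number. Signal over background limits 24 of 34 members to bounds on every array. The other 10 were each below background on at least 1 of the arrays compared between the diets. No member's difference between the diets therefore rests on measured levels alone.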
